A study of Mus musculus with 24 samples.

Results

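Mutant and wild-type mice were compared at the stage coded Lac10, on 3 mutant and 3 wild-type arrays out of the 24 single-colour expression arrays of the series. The members were chosen by the genotype and stage written in the labels, with no measured value. Both groups share a mixed FVB/129SVEV/Black Swiss background, mostly FVB, and no treatment separates them. The series is about BRCA1, a tumour suppressor of homologous recombination repair, yet the labels name neither the allele, nor a promoter or Cre that drives it, nor the tissue. The code Lac10 is read here as day 10 of lactation. Months are the unit in the design text, so the time itself is not settled. The other 18 arrays hold both genotypes at V (virgin), dp12 and dp18, with 3 arrays in each group.

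In lactation the alveolar cells of the mammary gland make milk fat, whey proteins and lactose at a high rate. Prolactin acts through the kinase JAK2 and the transcription factor STAT5 to keep these cells secreting. The transcription factors of the SREBP family, escorted out of the endoplasmic reticulum by SCAP, switch on the genes of fatty acid and sterol synthesis, and on their promoters they work together with the factor NF-Y.

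The levels below are log2 expression values, in which a difference of 1 is a doubling, and differences are mutant minus wild type, each with its standard error (SE) from the fitted model. The model takes 1 spread per gene from all 8 groups. Where the Lac10 arrays are more scattered than the other groups, SE and p understate their spread. The most abundant milk genes were near the top of the scale in both groups, as in a lactating mammary gland, and others such as Lpo and Csn1s2b were lower. Csn2, the beta-casein gene, lay at 13.00, 13.09 and 13.05 on mutant arrays 1, 2 and 3, against 12.86, 13.07 and 12.82 on wild-type arrays 1, 2 and 3. The groups overlapped in Csn2. Brca1 lay at 5.44, 5.18 and 4.55 in mutants and at 5.55, 4.64 and 5.39 in wild type (difference -0.14, SE 0.31, adjusted p = 0.828). Which part of the gene the mutation removes, and whether the probes lie in it, is not given, so these values are no check of the genotype.

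The 6 arrays were not equally alike. Correlated with each of the other 23 arrays, the medians were 0.93, 0.799 and 0.945 for mutant arrays 1, 2 and 3, against 0.968, 0.957 and 0.951 for the wild-type arrays, and mutant array 2 also had the narrowest spread of values (SD 1.65). A coat gene raised a question about labels. The agouti gene, listed as a, lay at 8.74, 6.54 and 8.44 in mutants and at 9.18, 5.16 and 5.01 in wild type. At the other stages the mutant arrays lay between 7.31 and 8.95, except dp18 array 2 at 4.96, and the wild-type arrays between 4.76 and 5.19. The array labelled wild-type 1 therefore had an agouti level like that of most mutant arrays. The titles give it a white coat and wild-type arrays 2 and 3 a brown one. Mutant arrays 1 and 3 are titled white, and mutant array 2, with its intermediate level, golden. At dp18 a white coat goes with 8.95 on mutant array 3, but also with a low level, at 4.76 on wild-type array 2 and 4.96 on mutant array 2. Body weights in the titles were 30 and 37 g for mutant arrays 1 and 2, with array 3 lighter, and 28, 39 and 39 g for wild type. Labels are used as given, and values without mutant array 2 and the array labelled wild-type 1 are printed beside most lists. The titles of the 3 mutant arrays carry different identifying numbers and weights, while wild-type arrays 2 and 3 share a weight and a coat. The labels do not state that every array is another animal. If some are not, part of the spread behind the p-values is technical.

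Of 15234 genes tested, 36 fell in mutants at Lac10 (0.236%) and none rose (0.0%; limma on all 24 arrays, adjusted p under 0.05). At an unadjusted p under 0.05, 2166 genes were lower and 510 higher. With only the 6 Lac10 arrays fitted in limma, 0 genes passed, and 1463 had an unadjusted p under 0.05. The differences of the 36 genes that passed ran from -3.14 to -1.06, and in each of the 36 the 3 mutant values lay below the 3 wild-type values, a pattern shared by 1893 of all genes tested (12.4%). The reverse pattern held for 494 genes (3.24%). The calls depended on single arrays: 0 genes passed without mutant array 2, without wild-type array 2 or without wild-type array 3, where 979, 1820 and 1865 genes had an unadjusted p under 0.05. In these 3 settings all 36 genes stayed below 0, a direction that the lack of overlap fixes, with median differences of -1.39, -1.63 and -1.53. Without mutant array 1, 21 genes were higher and 271 lower, without mutant array 3, 260 higher and 1130 lower, and without the array labelled wild-type 1, 6 higher and 290 lower. Of all genes tested, 10108 of 15234 lay below 0, and their median difference was -0.19. With each array centred on housekeeping genes it was 0.35, 2 genes were called higher and 4 lower, and at an unadjusted p 3435 genes were higher and 510 lower, so all directions are relative to the scaling. In bulk samples, fewer cells of a type and less RNA per cell cannot be told apart.

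**Figure D1:**
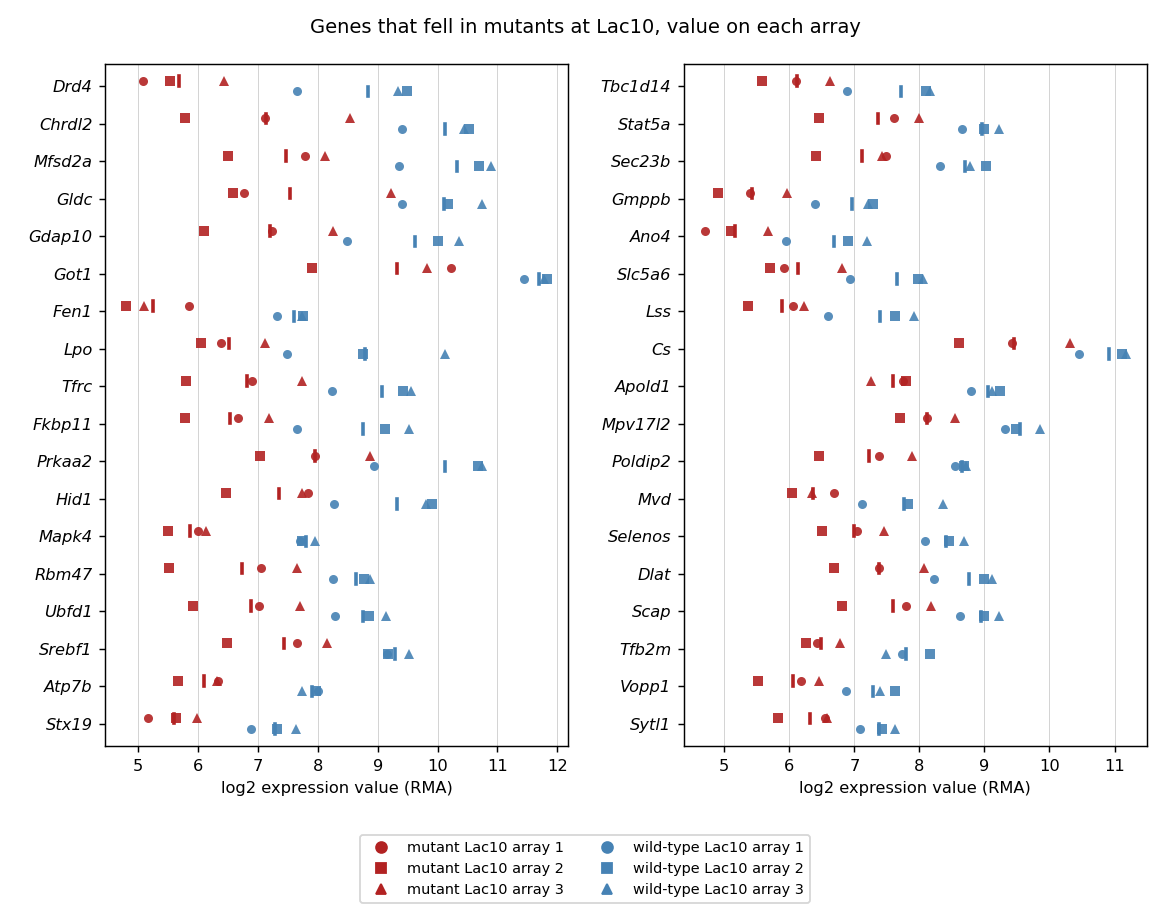
Log2 expression values (x axis) of the 36 genes that fell in mutants at Lac10, in order of the size of the fall. Red symbols are mutant arrays and blue symbols wild-type arrays, with 1 symbol shape per array number and a bar at each group mean. Mutant array 2 is the lowest of the 6 in 32 genes, and mutant array 3 is the highest mutant in 29.

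Within the mutant group the arrays kept an order. Mutant array 2 was the lowest of the 6 arrays in 32 of the 36 genes, mutant array 1 in 3 and mutant array 3 in 1. Mutant array 3 was the highest mutant in 29. Among the 1893 genes of all tested whose mutant values all lay below wild type, mutant array 2 was the lowest in 1653. Its low correlation with the other arrays moves with these calls, and its part in them was not tested. Without mutant array 2 and the array labelled wild-type 1 together, 93 genes were lower and 5 higher, and 28 of the 36 were among those lower. Stat5a, Fen1, Gldc, Got1, Atp7b, Mpv17l2, Poldip2 and Tfb2m were not.

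Of the regulators of lipid synthesis, Srebf1 and, on 1 probe set, Scap were among the genes that fell. Neither passed with housekeeping centring. Srebf1, which encodes SREBP-1, lay at 7.66, 6.49 and 8.15 on the mutant arrays, against 9.16, 9.17 and 9.53 on the wild-type arrays, a 3.61-fold fall (difference -1.85, SE 0.32, adjusted p = 0.0299). Scap, the escort of SREBP proteins, lay at 7.79, 6.81 and 8.18 in mutants and at 8.63, 8.99 and 9.22 in wild type (-1.35, SE 0.27, adjusted p = 0.042). A second Scap probe set differed by 0.11, so the call of Scap is uncertain. In both genes every mutant array was below every wild-type array, and mutant array 3 came closest to wild type. Srebf2, which encodes the sterol-directed member of the family, did not pass, at 9.22, 7.99 and 8.90 in mutants and 9.12, 9.31 and 9.13 in wild type (-0.48, adjusted p = 0.405).

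Of 17 tested genes of sterol synthesis and uptake, all lay below 0 and 2 passed, beside 0.236% of all genes. Lss, the lanosterol synthase gene, lay at 6.05, 5.36 and 6.22 in mutants and at 6.60, 7.63 and 7.92 in wild type (-1.51, SE 0.31, adjusted p = 0.042). Mvd, a decarboxylase of the mevalonate pathway, lay at 6.69, 6.04 and 6.35 in mutants and at 7.12, 7.82 and 8.36 in wild type (-1.41, SE 0.29, adjusted p = 0.042). In both genes the array labelled wild-type 1 was the wild-type array nearest to the mutants. The demethylase gene Cyp51 and the HMG-CoA synthase gene Hmgcs1 differed by -1.29 and -1.11 without passing (adjusted p = 0.12 and 0.129). The list median was -0.82, beside -0.19 over all genes tested, with values of -0.62, -1.49 and -0.77 on the 3 mutant arrays relative to the wild-type mean and -0.58 on the array labelled wild-type 1. It stayed at -0.82 without mutant array 2 and that wild-type array, and was -0.28 with housekeeping centring.

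The promoters of 3 genes that fell are shown as examples of windows with an NF-Y box, chosen because they hold it. Neither of the Scap windows and not the middle Srebf1 window has one. They are RefSeq sequences of the 250 bases before a gene's start on build GRCm38.p6, 5′ to 3′ on the gene's strand, with the box (CCAAT, or ATTGG where it is on the opposite strand) in capitals. For Srebf1 the window of the most downstream of 3 annotated starts is shown, in which the box begins at position -30 from the start.
Lss (chr10:76531355-76531604, + strand): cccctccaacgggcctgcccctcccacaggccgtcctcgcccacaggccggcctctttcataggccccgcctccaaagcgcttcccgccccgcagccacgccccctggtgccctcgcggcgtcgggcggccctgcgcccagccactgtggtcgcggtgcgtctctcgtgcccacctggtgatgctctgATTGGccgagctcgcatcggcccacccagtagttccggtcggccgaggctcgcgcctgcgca
Mvd (chr8:122443423-122443672, - strand): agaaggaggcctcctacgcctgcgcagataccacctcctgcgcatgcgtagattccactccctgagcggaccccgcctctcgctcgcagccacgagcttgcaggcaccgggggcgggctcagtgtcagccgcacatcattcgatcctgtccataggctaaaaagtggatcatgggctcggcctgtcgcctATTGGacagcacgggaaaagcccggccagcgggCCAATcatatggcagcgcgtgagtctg
Srebf1 (chr11:60210472-60210721, - strand): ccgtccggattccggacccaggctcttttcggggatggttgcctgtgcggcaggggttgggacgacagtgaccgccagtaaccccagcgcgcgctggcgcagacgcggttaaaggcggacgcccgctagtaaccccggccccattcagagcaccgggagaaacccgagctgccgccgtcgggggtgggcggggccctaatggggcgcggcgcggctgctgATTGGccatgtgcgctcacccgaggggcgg
The box on either strand was in the windows of all 13 sterol genes with a promoter in the table, in 10 of 16 fatty acid synthesis genes (62.5%) and in 18 of 32 genes that fell (56.2%), against 37.5% of 27025 genes. The sterol regulatory element, searched as TCACNCCAC on both strands, was in 1 of the 13 sterol genes and in 1.22% of all genes. Counted by window, the NF-Y box was in 45.5% of 44 windows of genes that fell, against 33.8% of 32851. It was in 31.2% of 32 oxidative phosphorylation genes. An E-box (CACGTG) was in 30.8% of the sterol genes and 15.6% of the genes that fell, against 6.86% of all. A STAT site (TTCNNNGAA) was in 0.0% and 9.38%, against 8.13%. The 27025 genes are all those with a promoter, not the genes tested. These matches describe the letters of the windows and not binding.

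Of 18 tested fatty acid synthesis genes, Srebf1 alone passed, and all 18 lay below 0 with a median of -1.52. The desaturase genes Fads2, Scd1 and Fads1 had mutant values all below the wild-type ones without passing. Fads2 lay at 10.86, 7.89 and 10.85 in mutants and at 11.37, 12.08 and 12.27 in wild type (-2.04, SE 0.54, adjusted p = 0.0836). Fasn, the fatty acid synthase gene, picked after its values were seen, lay at 10.16, 8.67 and 12.10 in mutants and at 11.75, 12.35 and 12.61 in wild type (-1.92, SE 0.52, adjusted p = 0.0846). In Fasn mutant array 3 was within the wild-type range. The list median relative to the wild-type mean was -1.73, -2.66 and -0.23 on mutant arrays 1, 2 and 3, and -0.68 on the array labelled wild-type 1. It was -1.39 without mutant array 2 and that array and -0.98 with housekeeping centring. Groups did not overlap in 5 of the 18 (27.8%), beside 12.4% of all genes.

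Several other metabolic genes were among the 36 that fell, and they belong to no list fixed for the purpose. Cs, the citrate synthase gene, lay at 9.43, 8.61 and 10.32 in mutants and at 10.45, 11.12 and 11.17 in wild type (-1.46, SE 0.29, adjusted p = 0.042). Dlat, the acetyltransferase subunit of pyruvate dehydrogenase, differed by -1.39 and Slc5a6, the carrier of biotin and pantothenate, by -1.52 (adjusted p = 0.042 for each). Got1, the cytosolic aspartate aminotransferase gene, lay at 10.22, 7.91 and 9.83 in mutants and at 11.45, 11.83 and 11.78 in wild type (-2.37, SE 0.47, adjusted p = 0.042), and Gldc, of the glycine cleavage system, differed by -2.58 (adjusted p = 0.0455). Mutant array 2 was the lowest array in all 5 genes. Prkaa2, a catalytic subunit of the energy sensor AMPK, which restrains lipid synthesis, fell too, by 2.16 (adjusted p = 0.0455).

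No gene of triglyceride assembly and the milk fat globule passed among 17 tested, with a median of -0.82. With housekeeping centring that median was -0.28. Lpin1, which makes diacylglycerol, lay at 8.94, 6.92 and 10.41 in mutants and at 10.53, 11.30 and 11.36 in wild type (-2.30, SE 0.62, adjusted p = 0.0846). Mutant array 3 was only just below wild type there. The list median was -0.01 on mutant array 3, against -1.16 and -1.35 on mutant arrays 1 and 2. Dgat2 was above 0 at 0.80 (adjusted p = 0.444), the only member of the list above 0.

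Mfsd2a, which encodes a carrier of lysophosphatidylcholine with docosahexaenoic acid, had one of the 3 largest falls. It lay at 7.79, 6.50 and 8.12 in mutants and at 9.35, 10.70 and 10.89 in wild type, 7.21-fold lower (-2.85, SE 0.43, adjusted p = 0.012). Drd4, the dopamine D4 receptor gene, lay at 5.08, 5.53 and 6.43 in mutants and at 7.65, 9.49 and 9.34 in wild type, 8.83-fold lower (-3.14, SE 0.48, adjusted p = 0.012). Chrdl2, a chordin-like antagonist of bone morphogenetic proteins, lay at 7.11, 5.78 and 8.53 in mutants and at 9.41, 10.52 and 10.45 in wild type, 7.91-fold lower (-2.98, SE 0.57, adjusted p = 0.042). The mutant and wild-type arrays did not overlap in these 3 genes, and the array labelled wild-type 1 was the lowest wild-type array in all of them.

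Of the genes that fell, 1 takes up iron and 1 exports copper, with no list of metal genes behind them. Tfrc, the transferrin receptor gene for iron uptake and a member of the housekeeping list used for centring, lay at 6.90, 5.80 and 7.74 in mutants and at 8.23, 9.43 and 9.55 in wild type (-2.26, SE 0.38, adjusted p = 0.0243). Atp7b, the copper pump that loads copper for secretion, lay at 6.33, 5.66 and 6.31 in mutants and at 8.00, 7.97 and 7.74 in wild type (-1.80, SE 0.36, adjusted p = 0.042). In both, the mutant and wild-type arrays did not overlap. The median of 19 tested transporters of milk nutrients, ions and water was -1.04, but -0.5 with housekeeping centring. The mutant arrays were at -1.01, -1.63 and -0.41. Of these transporters 18 lay below 0 and none passed. Among them the zinc carrier gene Slc30a4 lay at 8.56, 6.62 and 9.05 in mutants and at 9.53, 9.62 and 9.68 in wild type (-1.53, adjusted p = 0.102), and Slc35a2, the UDP-galactose carrier of the Golgi that serves lactose synthesis, differed by -1.04 (adjusted p = 0.0827).

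Among milk proteins, caseins had a median near 0 and whey proteins lower values. Of 5 caseins none passed, with a median of 0.13 that was 0.67 with housekeeping centring and -0.08 without mutant array 2 and the array labelled wild-type 1. Their differences ran from -1.02, in Csn3, to 0.25, with 2 below 0 and 3 above. Csn1s1 and Csn1s2a lay between 12.49 and 12.83 in mutants and between 12.34 and 12.74 in wild type, near the top of the scale. Of 14 whey and other secreted milk proteins, all lay below 0 with a median of -1.07, and Lpo, the antibacterial lactoperoxidase gene, alone passed. It lay at 6.39, 6.05 and 7.12 in mutants and at 7.49, 8.76 and 10.12 in wild type (-2.27, SE 0.48, adjusted p = 0.0481). The whey acidic protein gene Wap and Lalba, the alpha-lactalbumin subunit of lactose synthase, both picked after their values were seen, differed by -0.96 and -0.45 (adjusted p = 0.386 and 0.829), and both overlapped. The whey list was at -0.66, -2.19 and -0.18 on the mutant arrays and at -0.62 on the array labelled wild-type 1. Its median was -0.54 without mutant array 2, -1.0 without that array and the array labelled wild-type 1, and -0.53 with housekeeping centring.

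**Figure D2:**
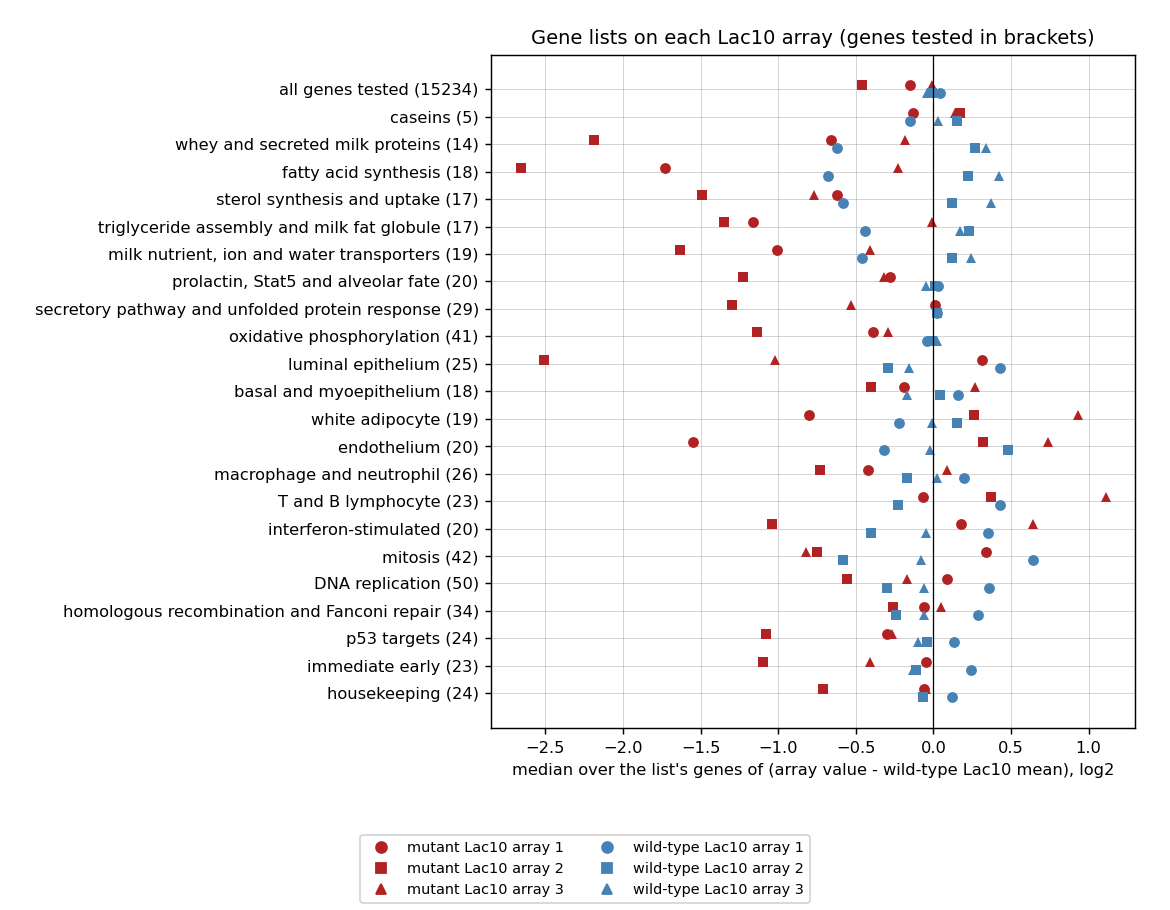
Median over the genes of a list of each array's value minus the wild-type Lac10 mean (x axis, log2), for 22 lists and for all genes tested, with the number tested in brackets. Red symbols are mutant arrays and blue symbols wild-type arrays, with 1 shape per array number. Mutant array 2 lies far to the left in fatty acid synthesis (-2.66), and mutant array 3 lies close to wild type there (-0.23).

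In the prolactin pathway Stat5a was the gene that passed among 20 tested. It lay at 7.61, 6.45 and 8.00 in mutants and at 8.66, 9.00 and 9.23 in wild type, 3.05-fold lower (-1.61, SE 0.33, adjusted p = 0.0455). Its close relative Stat5b lay at 7.99, 6.82 and 8.58 in mutants and at 8.89, 9.34 and 9.04 in wild type (-1.29, SE 0.42, adjusted p = 0.131), and Elf5, a transcription factor of alveolar fate, at 8.60, 6.72 and 8.69 in mutants and 9.40, 9.29 and 9.57 in wild type (-1.42, adjusted p = 0.132). Both had all mutant arrays below wild type and did not pass. Cish, a feedback inhibitor that STAT5 induces, differed by -1.26 (adjusted p = 0.0785). The list had 7 genes with mutant values all below wild type (35.0%, beside 12.4% of all genes). The share was similar in p53 targets (33.3%) and immediate early genes (34.8%). Its median was -0.63, but -0.09 with housekeeping centring and -0.15 without mutant array 2 and the array labelled wild-type 1.

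The secretory pathway had 1 gene past the threshold of 29. Sec23b, a coat subunit of vesicles that leave the endoplasmic reticulum, lay at 7.49, 6.41 and 7.42 in mutants and at 8.32, 9.02 and 8.78 in wild type (-1.60, SE 0.31, adjusted p = 0.042). The list median was -0.58, made of 0.01, -1.30 and -0.53 on the 3 mutant arrays, so mutant array 1 was level with wild type. With housekeeping centring it was -0.04, without mutant array 2 -0.18, and without mutant array 2 and the array labelled wild-type 1 -0.20. Genes outside the list that fell, grouped here after their values were seen, were Fkbp11, a prolyl isomerase of the endoplasmic reticulum, at -2.22, Hid1, of the trans-Golgi network, at -1.98, the SNARE gene Stx19 at -1.68, Gmppb, which makes GDP-mannose for glycosylation, at -1.54, Selenos, of protein quality control, at -1.41 and Sytl1, a RAB27 effector, at -1.06. Their adjusted p values ran from 0.0243 to 0.042.

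Mitochondrial genes lay lower by small amounts. Of 41 tested genes of oxidative phosphorylation none passed, 38 lay below 0 and the median was -0.60. In 27 of them (65.9%) the 3 mutant arrays were all below the 3 wild-type arrays, beside 12.4% of all genes. Ndufb9, a complex I subunit, lay at 9.50, 7.55 and 9.23 in mutants and at 9.99, 10.05 and 10.25 in wild type (-1.34, SE 0.34, adjusted p = 0.0785). The list was at -0.39, -1.14 and -0.29 on the mutant arrays, and its median was -0.37 without mutant array 2 and the array labelled wild-type 1 and -0.06 with housekeeping centring. Outside the list Mpv17l2, of mitochondrial ribosome assembly, fell by 1.43 and Tfb2m, a mitochondrial transcription factor, by 1.31 (adjusted p = 0.042 and 0.0479). Other Tfb2m probe sets differed by -0.71 and 0.06.

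The remaining genes that fell belong to none of these groups. Mapk4, an atypical MAP kinase gene, lay at 5.99, 5.50 and 6.13 in mutants and at 7.71, 7.73 and 7.95 in wild type (-1.92, SE 0.30, adjusted p = 0.012). Its arrays were close together within each genotype, with SDs of 0.33 in mutants and 0.14 in wild type. Apold1, an endothelial gene, fell by 1.45 (adjusted p = 0.042) and was the only one of the 36 with mutant array 3 as the lowest array, at 7.74, 7.80 and 7.25 in mutants and 8.80, 9.24 and 9.11 in wild type. Rbm47, which encodes an RNA-binding protein, differed by -1.89, the autophagy regulator gene Tbc1d14 by -1.61, the anoctamin gene Ano4 by -1.53, Gdap10 by -2.42, Ubfd1 by -1.88, Poldip2 by -1.41 and Vopp1 by -1.24.

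Division and repair genes, the subject of the series, gave 1 call. Of 50 DNA replication genes Fen1, the flap endonuclease gene, fell, at 5.85, 4.80 and 5.09 in mutants and 7.31, 7.76 and 7.74 in wild type (-2.36, SE 0.44, adjusted p = 0.042). Its other probe set differed by 0.01, so the gene's own call is uncertain. The list median was -0.21, near the -0.19 of all genes, and it was 0.33 with housekeeping centring and 0.20 without mutant array 2 and the array labelled wild-type 1. The helicase gene Mcm2 had a difference of -0.33 (SE 0.46, adjusted p = 0.717). Of 42 mitosis genes none passed, with a median of -0.44 that was 0.10 with housekeeping centring and 0.07 without mutant array 2 and the array labelled wild-type 1. Mki67, a marker of cycling cells, lay at 8.07, 5.85 and 7.13 in mutants and at 8.79, 8.43 and 8.92 in wild type (-1.70, adjusted p = 0.121). Of 34 genes of homologous recombination and Fanconi repair none passed and the median was -0.09, which was 0.45 with housekeeping centring. Wee1, the kinase that holds CDK1 inactive, lay at 9.26, 5.73 and 7.85 in mutants and at 9.73, 8.68 and 8.48 in wild type (-1.35, SE 0.62, adjusted p = 0.263), and the groups overlapped. Chek2, a checkpoint kinase, lay at 6.13, 5.48 and 7.04 in mutants and at 7.51, 7.81 and 7.44 in wild type (-1.37, SE 0.40, adjusted p = 0.0976). Of 24 p53 targets none passed, with a median of -0.51 (0.03 with housekeeping centring and -0.18 without mutant array 2 and the array labelled wild-type 1). Cdkn1a, which encodes p21, lay at 8.68, 7.29 and 8.22 in mutants against 8.93, 9.32 and 8.90 in wild type.

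Hormone receptor genes did not pass. Esr1, the oestrogen receptor alpha gene, lay at 6.73, 6.61 and 7.71 in mutants and at 6.33, 7.94 and 8.03 in wild type (-0.42, adjusted p = 0.589), and Pgr, the progesterone receptor gene, at 5.15, 5.21 and 4.80 in mutants and 4.76, 4.58 and 4.63 in wild type (0.39, adjusted p = 0.502). In Esr1 the groups overlapped, and in Pgr the mutant arrays all lay above wild type, a pattern of 3.24% of all genes. Every Pgr value was below the median of its array, and those medians ran from 5.34 to 5.62. Of 25 genes of oestrogen and progesterone response none passed, with a median of -0.19.

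No gene rose, and the 15 genes with the smallest p among those higher are values only. Bnc2, a zinc finger transcription factor gene, lay at 6.81, 6.98 and 6.24 in mutants and at 5.83, 5.80 and 5.77 in wild type (0.88, SE 0.20, adjusted p = 0.0593). Apod, the apolipoprotein D gene, lay at 9.61, 8.67 and 9.24 in mutants and at 7.62, 7.44 and 7.95 in wild type (1.50, SE 0.39, adjusted p = 0.0803). Tnfrsf11b, which encodes osteoprotegerin, the decoy receptor of RANKL, lay at 6.52, 6.87 and 7.43 in mutants and at 5.94, 5.60 and 5.76 in wild type (1.17, SE 0.31, adjusted p = 0.0822). The arrays of the 2 genotypes did not overlap in these genes. Others of the 15 were the growth factor gene Ptn at 1.24, Mmrn1, of lymphatic endothelium and platelets, at 1.18, Nox4, an NADPH oxidase gene, at 1.08, and the small nucleolar RNA Snora21 at 1.18. The adjusted p of the 15 ran from 0.0593 to 0.0926.

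Marker lists of several cell types differed between arrays of the same group. Luminal epithelium genes (25 tested, none passing) were at 0.31, -2.51 and -1.02 on the mutant arrays and at 0.43, -0.29 and -0.16 on the wild-type arrays, so mutant array 2 was far below the rest. Their median difference was -1.07, and -0.17 without mutant array 2 and the array labelled wild-type 1. Their mean levels were 9.41, 6.72 and 7.94 on the mutant arrays and 9.43, 8.61 and 8.82 on the wild-type arrays. White adipocyte genes were at -0.80, 0.26 and 0.93 on the mutant arrays. Their median difference was 0.07, with 9 of 19 genes below 0 and 10 above. It was -0.1 without mutant array 2 and the array labelled wild-type 1. One of those above 0 was Retn, the resistin gene, at 5.50, 6.93 and 9.77 in mutants and 5.19, 5.32 and 5.24 in wild type. Endothelial genes were at -1.55 on mutant array 1, where the VEGF receptor gene Kdr lay at 7.41, beside 10.60 and 11.02 on mutant arrays 2 and 3 and 9.18, 10.60 and 9.97 in wild type. T and B lymphocyte genes had a median difference of 0.50, and 0.78 at dp18. They were at -0.07, 0.37 and 1.11 on the mutant arrays and at 0.43, -0.23 and -0.23 on the wild-type arrays. In skeletal muscle 7 of 14 genes had mutant values all above wild type, beside 3.24% of all genes, with a list median of 0.28. None of these 5 lists had a gene past the threshold. Their part in the falls of lipid and milk genes was not tested. As background, alveolar cells express the luminal genes as well as the milk and lipid genes.

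Mutant array 1 and the array labelled wild-type 1 stood together in several genes, picked after their values were seen. Csn1s2b, a casein gene, lay at 8.19, 10.43 and 11.32 in mutants and at 6.47, 11.47 and 11.24 in wild type. Atp2b2, the calcium pump of the apical membrane that supplies milk calcium, lay at 5.38, 6.80 and 9.53 in mutants and at 5.65, 9.85 and 9.79 in wild type. Krt18, a luminal keratin gene, went the other way, at 11.64, 6.79 and 8.58 in mutants and at 11.14, 9.44 and 9.55 in wild type. In each of these genes arrays numbered 1 of both genotypes were at one end, and the numbers of mutant arrays are in accession order and pair nothing. The values of Slc34a2, Cidea, Cldn4 and Kit are in the plot of genes that differ within a group.

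**Figure D3:**
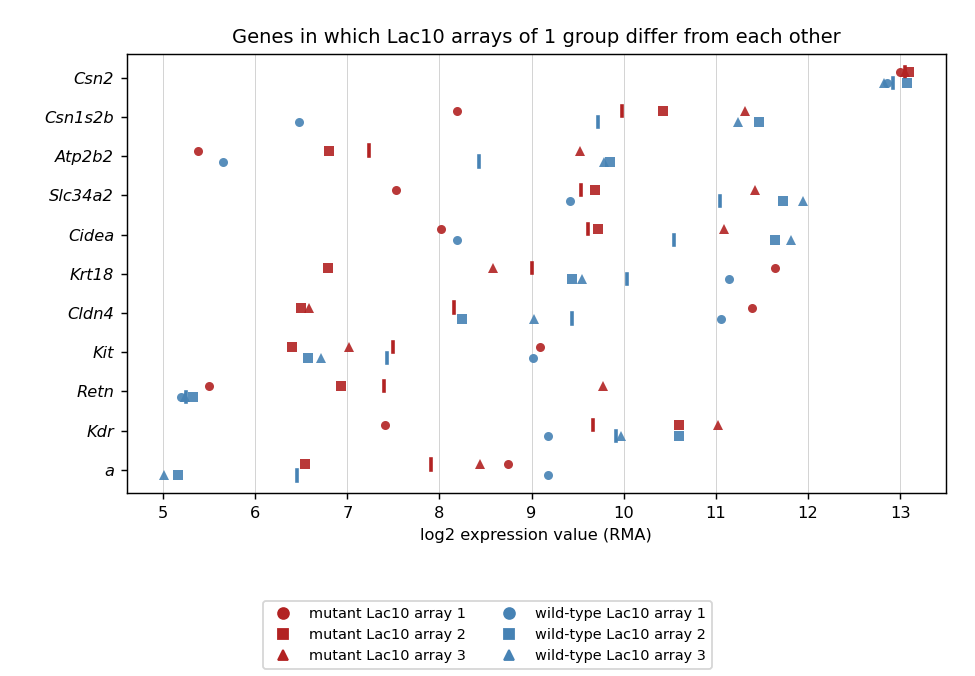
Log2 expression values (x axis) on each of the 6 Lac10 arrays for genes picked because arrays of 1 group differ, with Csn2 as a gene that does not. Red symbols are mutant arrays and blue symbols wild-type arrays, with 1 shape per array number and a bar at each group mean. Mutant array 1 and the array labelled wild-type 1 lie together at 5.38 and 5.65 in Atp2b2 and at 9.09 and 9.01 in Kit.

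The genotype difference at Lac10 was then set against the mean of the differences at V, dp12 and dp18. It was more negative in 19 genes (0.125%) and more positive in none (0.0%; 2377 and 729 genes at an unadjusted p under 0.05). This contrast reuses the Lac10 values behind the 36 falls, so an overlap with them is partly built in. Of the 19, 17 were among the 36 that fell at Lac10. The other 2 were Apln, which encodes the peptide apelin, and Fos, an immediate early transcription factor gene. Apln lay at 6.99, 5.75 and 6.83 in mutants and at 8.66, 8.48 and 8.60 in wild type at Lac10 and differed by -0.37, 1.75 and 0.36 at V, dp12 and dp18 (contrast -2.64, SE 0.52, adjusted p = 0.044). For Drd4 the contrast was -3.56 (SE 0.55, adjusted p = 0.0307), for Mfsd2a -3.03 (SE 0.50, adjusted p = 0.0307) and for Srebf1 -2.06 (SE 0.37, adjusted p = 0.0339). Fos lay at 10.24, 9.99 and 10.62 in mutants and at 11.20, 11.06 and 11.38 in wild type at Lac10 (contrast -1.29, SE 0.23, adjusted p = 0.0339). It belongs to the immediate early genes, of which all 23 tested lay below 0 at Lac10 and none passed, with a median of -0.48 that was 0.06 with housekeeping centring and -0.08 without mutant array 2 and the array labelled wild-type 1. As at Lac10 itself, the count was 0 without mutant array 2, wild-type array 2 or wild-type array 3.

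The 36 genes had smaller genotype differences before lactation. Their median difference was 0.33 at V, 0.19 at dp12 and 0.04 at dp18, and 28, 33 and 20 of them lay above 0. Over all genes tested the medians were 0.2, -0.0 and 0.01. Choosing genes by a large Lac10 difference favours smaller differences at the other stages. Over all genes 4 passed at V, 0 at dp12 and 0 at dp18. Srebf1 averaged 7.75, 9.08, 8.61 and 7.44 in mutants at V, dp12, dp18 and Lac10, against 7.39, 8.87, 8.56 and 9.29 in wild type (SD 0.17, 0.21, 0.35 and 0.85 in mutants, and 0.24, 0.51, 0.22 and 0.21 in wild type, n = 3 each). Both genotypes had similar Srebf1 means up to dp18 and separated at Lac10. The dp18 means include wild-type array 1 and mutant array 1, with median correlations with the other arrays of 0.837 and 0.863. With mutant Lac10 array 2 these are the 3 arrays of lowest correlation. They also include mutant dp18 array 2, with its low agouti level. The part of these arrays in the dp18 differences was not tested. Mfsd2a averaged 8.12, 9.21, 8.42 and 7.47 in mutants, against 7.28, 9.04, 8.89 and 10.32 in wild type. Wild type had its highest stage mean at Lac10 in 35 of the 36 genes (27.1% of all genes tested), and mutants had theirs at dp12 in 32 (39.2% of all). Choosing genes that are low in mutants and high in wild type at Lac10 favours this pattern.

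**Figure D4:**
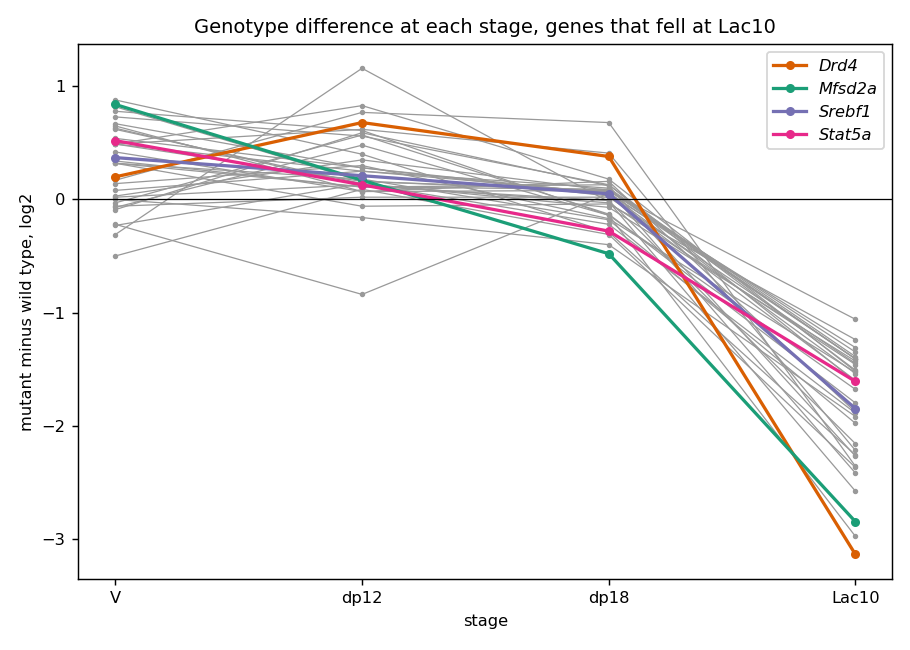
Genotype difference (mutant minus wild type, log2, y axis) at each stage (x axis) for the 36 genes that fell at Lac10, 1 line per gene, with Drd4, Mfsd2a, Srebf1 and Stat5a in colour. The lines lie around 0 at V, dp12 and dp18 (medians 0.33, 0.19 and 0.04) and between -1.06 and -3.14 at Lac10.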

How the data were processed

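RNA of 24 mouse samples was measured on single-colour arrays. The values deposited by the authors are log2 expression values from RMA, per the submitters' processing notes, with no version stated. RMA normalizes arrays to each other, so that a change common to most genes may not show. The deposited arrays still differed in median (5.31 to 5.62) and SD (1.65 to 1.99). Total RNA was extracted and labelled with biotin, per the labels' protocols. Another label text describes a pull-down of mRNA with a tagged PAB-1 protein, which is not settled here. The array number limits the precision (median SE 0.3).

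The platform annotation gives 1 symbol to 23521 of 41345 probe sets, several to 1814 and none to 16010. The first kind holds 22180 genes, 1082 of them with more than 1 probe set, for which the probe set of highest mean was used. Genes above the array median on at least 3 arrays were tested, 15234 of them (6946 removed). limma 3.58.1 in R 4.3.3 fitted 1 mean per group on all 24 arrays (16 residual and 4.35 prior degrees of freedom), with Benjamini-Hochberg adjustment over all genes and a threshold of 0.05. The contrast against the other stages subtracts the mean of their 3 differences. The procedure was tested on simulated data, drawn independently with the same spread on all arrays for each gene. Such data cannot check the effect of a deviating array.

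Arrays were grouped by source name. Wild-type numbers come from titles and mutant numbers from accession order. The members, the 39 gene lists, the tests and the alternatives were chosen with earlier results of these data known. Genes named by rule are the 15 largest falls (the other genes that fell were added) and the 15 of smallest p among those higher, up to 4 members per list, the 5 of smallest p per direction against the other stages, and Brca1, Esr1, Pgr, Wee1, Mcm2, Cdkn1a and agouti. A gene outside this rule was picked after its values were seen. Promoters are from RefSeq (GRCm38.p6). The alternatives were the probe set, filter, centring, variance trend, array weights, the 6 arrays alone, body weight, and arrays left out.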

Additional observations from a re-analysis of the deposited data

Results flagged for a closer look

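In 19 genes the genotype difference at Lac10 departed from the mean difference at V, dp12 and dp18, by the test of that contrast in limma (adjusted p under 0.05). All 19 contrasts were below 0. The genes of lipid metabolism among them were Mfsd2a at -3.03, Srebf1 at -2.06, the lanosterol synthase gene Lss at -1.98 and the vitamin carrier gene Slc5a6 at -2.02. Those of membrane traffic, folding and glycosylation were Fkbp11 at -2.72, Sec23b at -1.88, Gmppb at -1.87, Stx19 at -1.77, Selenos at -1.58 and Sytl1 at -1.30. The iron uptake gene Tfrc was at -2.59, the flap endonuclease gene Fen1 at -2.89 on 1 of its 2 probe sets, and the immediate early gene Fos at -1.29. The others were the dopamine receptor gene Drd4 at -3.56, Chrdl2 at -3.40, Gdap10 at -2.77, the apelin gene Apln at -2.64, Ubfd1 at -2.18 and the atypical kinase gene Mapk4 at -1.74. The count was 0 without mutant Lac10 array 2, without wild-type Lac10 array 2 and without wild-type Lac10 array 3, and the part of array quality in these contrasts was not tested.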

How the results depend on the processing

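The count of genes past the threshold at Lac10 moved with most settings, while all 36 genes stayed below 0 under each of the 18 alternatives, a direction that their choice fixes. It was 36, 37 and 37 with the probe set of largest variance, the stricter filter and a variance trend, 6 with no filter, 6 with housekeeping centring, 7 with array-median centring, 3306 with array weights (981 higher and 2325 lower; mutant array 2 had a weight of 0.12), 0 on the 6 Lac10 arrays alone (1463 at an unadjusted p under 0.05, limma), 1613 with body weight as a covariate (469 higher and 1144 lower; 2 dp18 arrays without a weight were dropped), 98 without mutant array 2 and wild-type array 1, 0 without the 3 arrays of lowest correlation (1859 unadjusted) and 269 without wild-type array 1 and mutant dp18 array 2. Leaving out each Lac10 array gave 0 to 1390. For the contrast against the other stages the main count of 19 was 11 with no filter, 0 with housekeeping centring (4190 unadjusted, 3773 of them higher), 7 with array-median centring, 3960 with array weights, 1780 with body weight, 95 without mutant array 2 and wild-type array 1, 0 without the 3 arrays of lowest correlation (2404 unadjusted) and 192 without wild-type array 1 and mutant dp18 array 2, and leaving out each Lac10 array gave 0 to 1929. The causes of these moves were not tested. No paired analysis was possible because the mutant titles carry no replicate number.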
